A study of Mus musculus with 6 samples.

Results

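Runx1 and 9 other transcription regulators that set the identity of sensory neurons (Runx3, Cbfb, Isl1, Isl2, Pou4f1, Pou4f3, Tlx3, Prrxl1 and Klf7) were followed in dorsal root ganglia of mice with a floxed Scn9a gene, which encodes the sodium channel Nav1.7. The 10 genes were taken by their NCBI mouse gene identifiers from 36528 listed genes, and all 10 passed the filter on low counts. In CreER-positive mice (n = 3) the genotype was Scn9a loxP/loxP with pCAAG.Cre.ER, a tamoxifen-inducible Cre recombinase under a promoter known to be active in most tissues. CreER-negative mice (n = 3), littermates per the series' design, had the same Scn9a loxP/loxP alleles without the transgene. All mice were female and 12 to 18 weeks old, and RNA of 6 lumbar ganglia of a mouse made up each library. The presence of CreER and any loss of Scn9a go together in these groups and cannot be told apart. The tamoxifen schedule is not given in the sources used here.

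Sensory neurons of the dorsal root ganglion arise from a common precursor and are then divided into classes by transcription factors. Isl1 and the POU factor Pou4f1 (Brn3a) act early and broadly in these neurons, and Runx1 and Runx3 act later in separate classes. Runx1 is known in mouse for directing non-peptidergic nociceptors, itch neurons and C-fibre low-threshold mechanoreceptors, and Runx3 for directing TrkC-positive proprioceptors. Cbfb is the partner protein that strengthens the DNA binding of every Runx protein.

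Among the 10 factors, Runx1 alone passed the edgeR test, and it fell, but its call was lost in 6 of 16 alternative settings. Isl2, a LIM homeodomain factor, had a nearly equal estimate that did not pass. None of the other 8 factors passed by edgeR or DESeq2, and their estimates lay between -0.12 and 0.19 on the log2 scale. In edgeR's quasi-likelihood fit, with p adjusted by Benjamini-Hochberg over the 22043 genes that passed the filter, 1 of 10 factors was called, against 0.726% of all tested genes. DESeq2 called 2, Runx1 and Isl2, against 2.28% of its tested genes. The CPM values (a gene's count over the library total, scaled by TMM factors) of the groups did not overlap for 3 of the 10 factors, all lower in CreER-positive mice (Runx1, Isl1 and Isl2). Over all tested genes 15.9% did not overlap, made up of 9.31% lower and 6.63% higher in CreER-positive mice. The median log2 fold change was -0.07 over the 10 factors and 0.00 over all tested genes.

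The start sites of Runx1, of its relative Runx3 and of Isl2 are shown because Runx1 and Isl2 had the lowest estimates and because Runx proteins bind a known core motif. Each sequence holds the 250 bases before a RefSeq start site (GRCm38.p6), written 5′ to 3′ on the strand of the gene. Capitals mark TGTGGT or its reverse complement ACCACA, a form of the core of the Runx motif. Other forms of the core were not searched. Runx1 has a distal and a proximal start site on the minus strand of chromosome 16.
Runx1 distal, chr16:92826075-92826324: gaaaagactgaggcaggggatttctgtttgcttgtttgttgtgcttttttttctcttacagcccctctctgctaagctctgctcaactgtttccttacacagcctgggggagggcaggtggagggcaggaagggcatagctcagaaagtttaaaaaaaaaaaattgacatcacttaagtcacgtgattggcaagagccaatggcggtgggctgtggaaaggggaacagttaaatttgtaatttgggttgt
Runx1 proximal, chr16:92697330-92697579: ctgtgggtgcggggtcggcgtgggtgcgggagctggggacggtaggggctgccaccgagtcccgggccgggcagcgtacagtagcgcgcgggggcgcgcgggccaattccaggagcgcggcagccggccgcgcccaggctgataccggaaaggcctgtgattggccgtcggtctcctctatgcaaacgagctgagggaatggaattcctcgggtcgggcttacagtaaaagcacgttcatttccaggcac
Runx3 distal, chr4:135120395-135120644: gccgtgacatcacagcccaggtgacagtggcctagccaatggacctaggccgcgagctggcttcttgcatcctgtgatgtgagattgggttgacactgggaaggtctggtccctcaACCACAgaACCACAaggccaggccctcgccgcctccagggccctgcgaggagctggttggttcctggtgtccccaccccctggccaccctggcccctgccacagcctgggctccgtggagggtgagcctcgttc
Isl2, chr9:55540899-55541148: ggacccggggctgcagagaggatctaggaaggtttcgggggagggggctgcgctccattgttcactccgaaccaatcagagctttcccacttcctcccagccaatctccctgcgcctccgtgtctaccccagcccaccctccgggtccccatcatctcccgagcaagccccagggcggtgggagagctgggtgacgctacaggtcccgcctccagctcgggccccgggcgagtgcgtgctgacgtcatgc
The Runx3 distal window, on the plus strand, held 2 copies of ACCACA that began 134 and 126 bases before the start site. The window of the other Runx3 start site (chr4:135152295-135152544, plus strand, not printed) held no copy, and G and C made up 78.8% of it. The Runx1 windows and the Isl2 window, the last on the plus strand, held no copy. The Isl2 window lies inside the gene span, which begins at 55538677, so the bases before that position were not searched. Over both strands, 2 of 11 windows of 9 factors held TGTGGT or ACCACA (18.2%), against 14% of 32851 windows of all genes. The other window was that of Prrxl1. G and C made up 45.6% of the Runx1 distal window and 67.6% of the proximal window. The deposited gene counts join transcripts from both Runx1 start sites.

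CreER-positive replicate 3 stood apart within its group. It had the lowest CPM of the CreER-positive libraries for 9 of the 10 factors, the exception being Isl1, and the lowest of all 6 libraries for 7. Over all tested genes it was the lowest CreER-positive library for 38.3% and the lowest of all for 22.9%. In the same library the 10 macrophage markers summed to 136 CPM, against 75.4 and 74.7 CPM in the other CreER-positive libraries and 70.5 to 93.7 CPM in CreER-negative libraries. The 6 satellite glia markers summed to 2311 CPM there, against 1759.6 and 1923 CPM in the other CreER-positive libraries and 1639 to 1795 CPM in CreER-negative libraries, and the 6 fibroblast markers to 1583 CPM, against 975 and 1012 CPM and 896 to 1170.4 CPM. The 10 pan-neuronal markers summed to 10205 to 13423 CPM in CreER-positive libraries, lowest in replicate 3, and to 10430.4 to 11967 CPM in CreER-negative libraries. Skeletal muscle markers summed to 4.64 to 8.07 CPM in CreER-positive libraries and to 4.87, 56.4 and 5.25 CPM in CreER-negative libraries, so CreER-negative replicate 2 also stood apart. Values without these libraries stand beside the results they change, and the part of the marker levels in the results was not tested.

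Among the Runx genes, Runx1 (NCBI gene 12394, GRCm38 chromosome 16, 92601466 to 92826074; the positions that follow are of the same build) had 106, 94.5 and 88.1 CPM in CreER-positive ganglia, against 136, 125 and 126 CPM in CreER-negative ganglia. Every CreER-positive library lay below every CreER-negative library, with replicate 3 the lowest. The means were 96.0 ± 8.87 CPM in CreER-positive mice and 129 ± 6.03 CPM in CreER-negative mice (SD, n = 3 each). Runx1 fell by 25.6%, a log2 fold change of -0.43 ± 0.07 (SE), with a 95% interval from -0.59 to -0.26 and an edgeR adjusted p of 0.0387. These values rest on 4686 to 6333 reads in a CreER-positive library and 5533 to 7969 in a CreER-negative library. In bulk tissue, fewer cells of a type and less RNA per cell cannot be told apart.

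The Runx1 estimate was below 0 under all 16 alternatives, from -0.55 to -0.37, but its call was lost in 6 of them. Without CreER-negative replicate 1, 2 or 3 the edgeR adjusted p was 0.211, 0.153 or 0.141. Without CreER-positive replicate 2 it was 0.102, and without CreER-negative replicate 2 and CreER-positive replicate 3 together it was 0.0845. With libraries scaled to the summed counts of 10 pan-neuronal markers the estimate was -0.55 and the adjusted p 0.0771, and this scaling moved the median of all genes to -0.11. The smallest adjusted p was that of DESeq2 (3.77e-05).

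Runx3 (chromosome 4, 135120645 to 135177990) had 5.14, 6.56 and 4.59 CPM in CreER-positive ganglia and 4.08, 4.77 and 5.33 CPM in CreER-negative ganglia. The groups overlapped, and the log2 fold change was 0.19 ± 0.15 (SE), with a 95% interval from -0.15 to 0.54 and an edgeR adjusted p of 0.740. Cbfb (chromosome 8, 105170674 to 105217989) had 374, 348 and 345 CPM in CreER-positive ganglia and 349.7, 349 and 354 CPM in CreER-negative ganglia. Its 95% interval ran from -0.12 to 0.16, so the lower limit for the partner subunit lay above the whole interval of Runx1. Runx2, the relative best known from bone and here named after its values were seen, had 12.8 ± 1.6 CPM in CreER-positive mice and 13.1 ± 0.452 CPM in CreER-negative mice, with an edgeR adjusted p of 0.931.

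A ratio of counts within a library does not depend on how libraries are scaled. The ratio of Runx1 to Cbfb counts was 0.283, 0.272 and 0.255 in CreER-positive libraries, against 0.389, 0.359 and 0.356 in CreER-negative libraries, with no overlap. The ratio of Runx1 to Runx3 counts was 20.6, 14.4 and 19.2 in CreER-positive libraries and 33.3, 26.3 and 23.6 in CreER-negative libraries. These ratios were not tested, and they share the Runx1 counts.

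**Figure D1:**
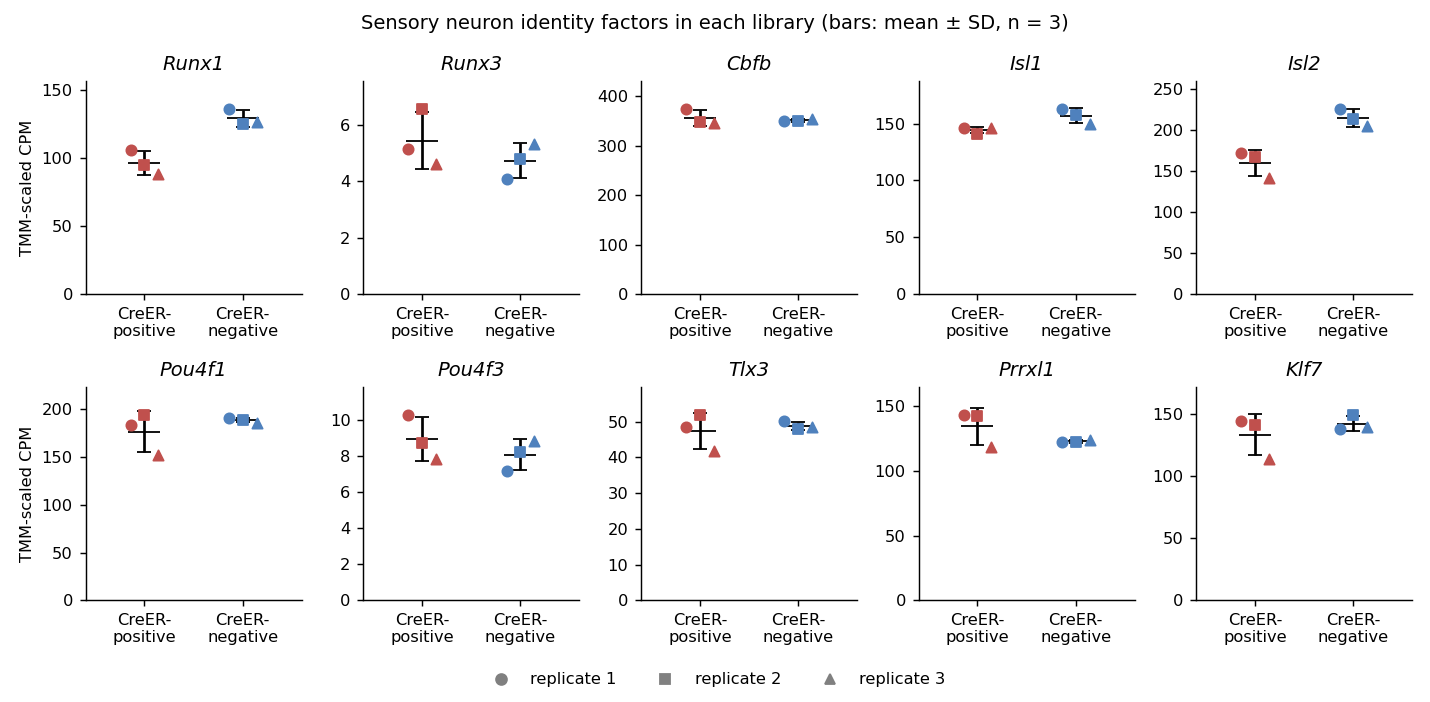
TMM-scaled CPM (vertical axes, from 0) of the 10 factors in each library, with CreER-positive mice on the left and CreER-negative mice on the right of each panel. Points are libraries, with 1 marker shape per replicate number, and bars are the mean ± SD (n = 3). The groups do not overlap for Runx1, Isl1 and Isl2.

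The LIM homeodomain factors Isl1 and Isl2 are expressed in nearly all sensory neurons from early development. Isl2 (NCBI gene 104360, chromosome 9, 55538677 to 55547667) had 172, 167 and 142 CPM in CreER-positive ganglia, against 226, 213 and 205 CPM in CreER-negative ganglia. All CreER-positive libraries were below all CreER-negative libraries, with replicate 3 the lowest. Its log2 fold change was -0.42 ± 0.08 (SE), with an unadjusted 95% interval from -0.60 to -0.24, and its edgeR adjusted p was 0.0560. The call turned on the method, with adjusted p values of 0.000114 by DESeq2, 0.0539 by limma-voom and 0.0415 by edgeR's robust setting. Isl2 was called in 6 of 16 alternatives, among them the fit without CreER-positive replicate 3 (-0.34, adjusted p 0.0193).

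Isl1 (chromosome 13, 116298270 to 116309688) had 146, 141 and 146 CPM in CreER-positive ganglia and 163, 158 and 149.7 CPM in CreER-negative ganglia. The groups did not overlap, but the step between the nearest libraries was small, and the log2 fold change of -0.12 ± 0.06 (SE) did not pass (edgeR adjusted p 0.509). The ratio of Isl1 to Isl2 counts was 0.849, 0.844 and 1.02 in CreER-positive libraries, against 0.721, 0.741 and 0.730 in CreER-negative libraries. The ratio was thus higher in each CreER-positive library than in any CreER-negative library, and it was not tested.

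**Figure D2:**
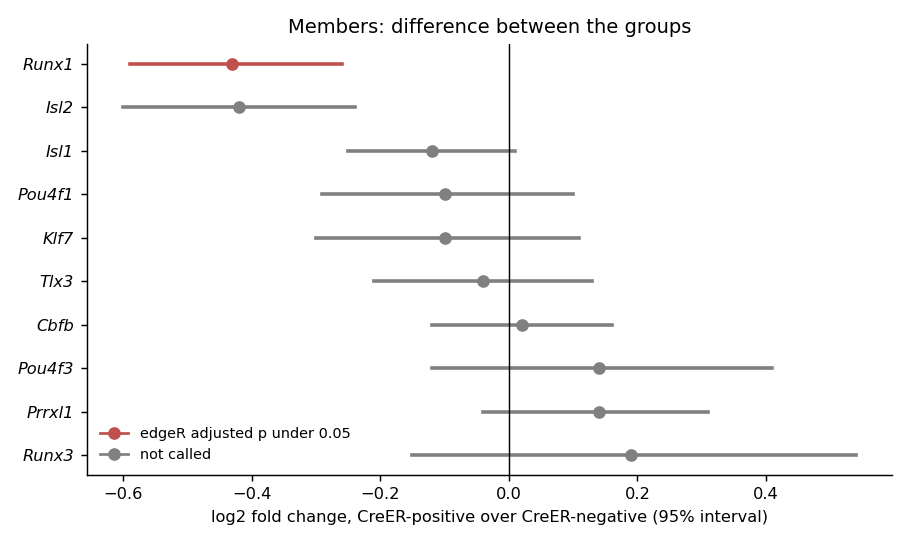
Log2 fold change, CreER-positive over CreER-negative (horizontal axis), of each factor with its unadjusted 95% interval from the edgeR fit; red marks an adjusted p under 0.05. Runx1 (-0.43) and Isl2 (-0.42) stand left of the other 8 factors, and Runx1 alone is red.

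Neither POU factor of the set passed. Pou4f1 (chromosome 14, 104461675 to 104468118), which is needed for sensory neuron survival and for the onset of Runx1 and Runx3 in mouse embryos, had 184, 194 and 152 CPM in CreER-positive ganglia and 191, 189 and 186 CPM in CreER-negative ganglia. CreER-positive replicate 3 alone was far below the others, and the estimate of -0.10 (edgeR adjusted p 0.778) was 0.00 without it. Pou4f3 (Brn3c), best known from hair cells of the inner ear, was low, with 8.94 ± 1.21 CPM in CreER-positive mice and 8.08 ± 0.865 CPM in CreER-negative mice (0.14, adjusted p 0.758). The ratio of Pou4f1 to Pou4f3 counts was 17.9, 22.2 and 19.3 in CreER-positive libraries. In CreER-negative libraries this ratio was 26.7, 23 and 21, so the groups overlapped, and it was not tested. Their relative Pou4f2 (Brn3b), which is no member of the set, had 13.8, 13.3 and 11 CPM in CreER-positive ganglia, against 21.2, 21.3 and 21.9 CPM in CreER-negative ganglia. Pou4f2 fell (-0.75 ± 0.09, edgeR adjusted p 0.00510), and it was called in all 16 alternatives.

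The homeodomain factors Tlx3 and Prrxl1 and the zinc finger factor Klf7 did not pass. Tlx3 (chromosome 11, 33200752 to 33203588), which is needed in mouse for Runx1-dependent nociceptor and itch genes, had 48.6, 51.9 and 41.9 CPM in CreER-positive ganglia and 50.2, 48.1 and 48.5 CPM in CreER-negative ganglia. Its estimate of -0.04 had a 95% interval from -0.21 to 0.13 and was 0.04 without CreER-positive replicate 3. Klf7 (chromosome 1, 64029448 to 64122345), which is needed for nociceptive neurons in mouse, had 144, 141 and 114 CPM in CreER-positive ganglia and 138, 149 and 139 CPM in CreER-negative ganglia. Its estimate of -0.10 (edgeR adjusted p 0.789) was 0.01 without CreER-positive replicate 3.

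Prrxl1 (also Drgx, chromosome 14, 32595867 to 32649246), which is needed for the connections of nociceptors to the spinal cord, had 143, 142 and 118 CPM in CreER-positive ganglia and 122, 122 and 124 CPM in CreER-negative ganglia. CreER-positive replicates 1 and 2 were above, and replicate 3 below, every CreER-negative library. The log2 fold change was 0.14 ± 0.08 (SE, edgeR adjusted p 0.608), and without CreER-positive replicate 3 it was 0.22 and passed (0.0393). The ratio of Tlx3 to Prrxl1 counts was 0.339, 0.365 and 0.354 in CreER-positive libraries, against 0.411, 0.394 and 0.392 in CreER-negative libraries, again with no overlap and no test.

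Runx1 and Runx3 are also known from immune cells. None of the 10 macrophage markers passed by edgeR (0.726% of all tested genes did) or DESeq2 (2.28% of its tested genes). None had an unadjusted edgeR p under 0.05 (10.5% of all tested genes did), and none was at 0 in all libraries. So few markers cannot show a difference from these shares. Of 8 lymphocyte markers, 7 had counts under their symbol, and these summed to 1.98 to 2.57 CPM in CreER-positive libraries and 1.95 to 3.41 CPM in CreER-negative libraries. Without CreER-positive replicate 3, the library highest in macrophage markers and lowest in Runx1, Runx1 had -0.37 and an edgeR adjusted p of 0.0240. Any part of immune cells in the Runx1 values was not tested.

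**Figure D3:**
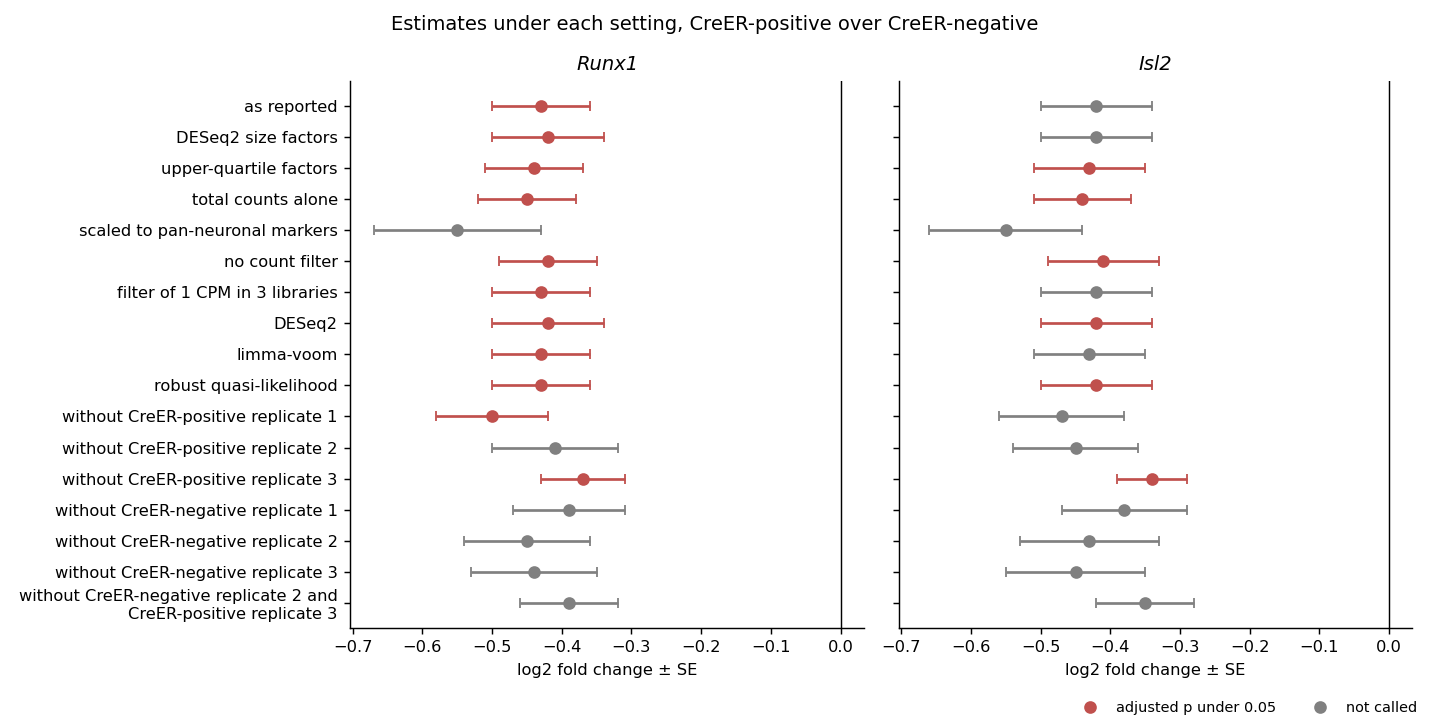
Log2 fold change ± SE (horizontal axes, CreER-positive over CreER-negative) of Runx1 and Isl2 as reported and under 16 alternative settings; red marks an adjusted p under 0.05. Every estimate lies between -0.55 and -0.34, while the calls differ between settings.

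Levels of different genes can be set side by side only per length, and the 2 length scales at hand gave different orders. On the deposited RPKM scale (reads relative to the gene width in the files and to the library total), Pou4f1 was highest with a median of 30.2 and a range of 24.7 to 30.9 over the 6 libraries, followed by Isl2 (21.0, 16.4 to 25.7), Tlx3 (17.4, 15.3 to 18.4) and Isl1 (13.2, 12.3 to 14.6). The ranges of Pou4f1 and Isl2, and of Isl2 and Tlx3, overlapped, and from Tlx3 downwards no neighbours did. Cbfb had 7.58, Pou4f3 5.75, Prrxl1 2.35, Klf7 1.6, Runx1 0.518 and Runx3 0.0873 RPKM (medians). The width of most genes is the whole span with introns, 224601 bases for Runx1 and 2837 for Tlx3, so this scale sets long genes low.

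Per kb of merged exons (GENCODE M21, GRCm38), Cbfb was highest with a median of 100.3 CPM per kb (99.2 to 107), followed by Isl2 with 85.9 (64.9 to 103), and these ranges overlapped. Pou4f1 (40.1), Isl1 (37.3), Tlx3 (31.7) and Prrxl1 (29.5) came next. Among these 4, Isl1 overlapped with neither Tlx3 nor Prrxl1, and the ranges of every other pair overlapped. Klf7 had 17.2, Runx1 9.60, Pou4f3 3.53 and Runx3 0.990 CPM per kb of exons. Pou4f3 thus stood above Runx1 per kb of gene width and below it per kb of exons, while Runx3 was lowest on both scales. If reads in introns are counted, as the widths imply, the exon scale sets long genes high.

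**Figure D4:**
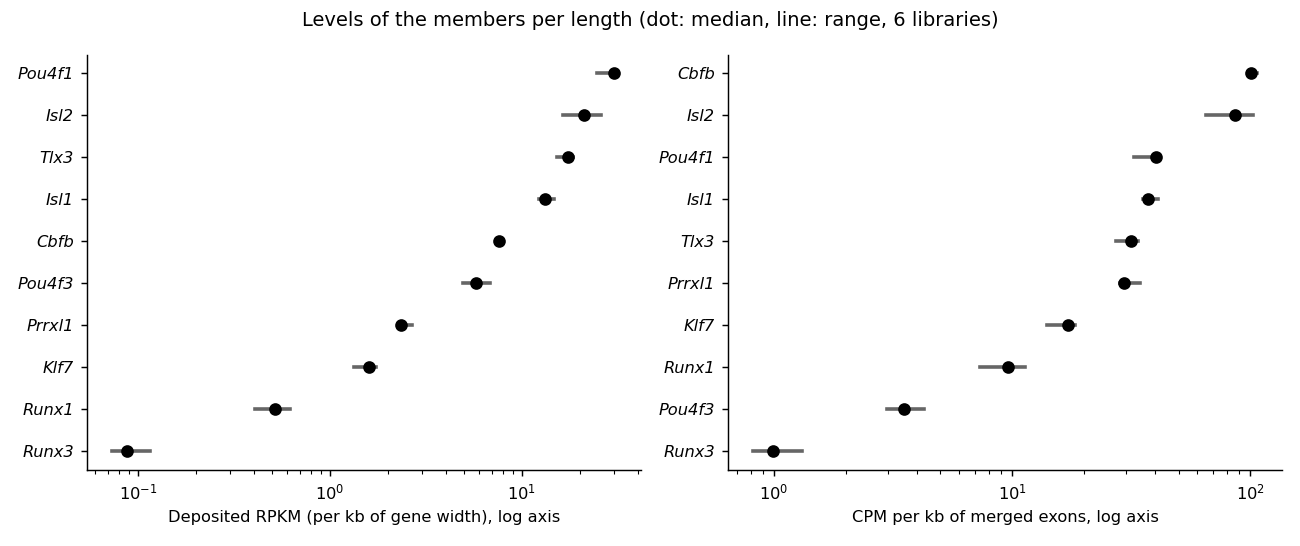
Levels of the 10 factors as deposited RPKM (left) and as CPM per kb of merged exons (right), both on log axes. Dots are medians and lines the lowest to highest of the 6 libraries, and Runx3 is lowest on both scales (0.0873 RPKM and 0.990 CPM per kb).

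Of 15 genes known to depend on Runx1 in mouse sensory neurons, 4 fell and 1 rose by edgeR, against 0.549% of all tested genes lower and 0.177% higher. This list was drawn up with the fall of several of its members already known, so its counts are a description. It does not divide the genes by the stage at which they need Runx1, so it sets no direction for adult mice. The median log2 fold change was -0.17 over the 15 genes and 0.00 over all tested genes. Estimates below 0 numbered 11 of the 15 and 10833 of all 22043 tested genes. Mrgprd, a receptor of non-peptidergic nociceptors, had 64.2, 54.9 and 60.3 CPM in CreER-positive ganglia, against 135, 139 and 144 CPM in CreER-negative ganglia (-1.22). Slc17a8, the vesicular glutamate transporter VGLUT3, had 12.4, 10.1 and 7.63 CPM in CreER-positive ganglia and 28.1, 25.5 and 25.3 CPM in CreER-negative ganglia (-1.38). These estimates lay beyond the interval of Runx1, the 95% intervals ending at -1.07 and -1.06, and both calls were made in all 16 alternatives.

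Th, tyrosine hydroxylase of C-fibre mechanoreceptors (-0.53 ± 0.08), and Tafa4, a secreted protein of the same neurons (-0.50 ± 0.08), changed by about as much as Runx1, with edgeR adjusted p values of 0.0193 and 0.0264. The irritant receptor gene Trpa1 went the other way, with 214, 197 and 206 CPM in CreER-positive ganglia and 161, 160.4 and 161 CPM in CreER-negative ganglia (0.36, edgeR adjusted p 0.0265). Th lost its call without CreER-positive replicate 2 (edgeR adjusted p 0.0518), CreER-negative replicate 2 (0.120) or CreER-negative replicate 3 (0.121), and without CreER-negative replicate 2 and CreER-positive replicate 3 together (0.0632). Tafa4 lost it without CreER-positive replicate 2 (0.0733) or CreER-negative replicate 1, 2 or 3 (0.120, 0.0790 and 0.104), without CreER-negative replicate 2 and CreER-positive replicate 3 together (0.0524) and with pan-neuronal scaling (0.0526). Trpa1 lost it without CreER-positive replicate 1 (0.0995) or CreER-negative replicate 1, 2 or 3 (0.180, 0.190 and 0.139), without CreER-negative replicate 2 and CreER-positive replicate 3 together (0.0751) and with pan-neuronal scaling (0.24, adjusted p 0.921).

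The other 10 genes of the list had edgeR adjusted p values above 0.1. Of these, Mrgpra3, Mrgprb5 and Scn11a were singled out after their values were seen. Mrgpra3, a receptor of itch neurons, had 30.1 ± 1.84 CPM in CreER-positive mice and 24.6 ± 1.20 CPM in CreER-negative mice (0.29, adjusted p 0.110 by edgeR and 0.0249 by DESeq2). Mrgprb5 had 3.40, 2.96 and 7.84 CPM in CreER-positive ganglia, against 8.86, 9.97 and 8.79 CPM in CreER-negative ganglia. It was not called (-0.97, edgeR adjusted p 0.261), and without CreER-positive replicate 3 it was (-1.53, 0.000586). Scn11a, the sodium channel Nav1.9, had -0.23, with an adjusted p of 0.215 by edgeR and 0.0127 by DESeq2. RefSeq windows were at hand for 9 of the 15 genes, Mrgprd, Slc17a8, Th and Tafa4 among them. Of their 10 windows of 250 bases, 0 held TGTGGT or ACCACA, against 14% of 32851 windows of all genes. So few windows cannot show a difference from that share.

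Of 5 genes that Runx1 is known to hold down in non-peptidergic neurons, 0 were called by edgeR and by limma-voom. These methods called 0.726% and 0.721% of all tested genes. An unadjusted edgeR p under 0.05 was reached by 3 (10.5% of all tested genes did so). DESeq2 called 1 (2.28% of its tested genes). All 5 estimates were above 0, as were 11210 of 22043 over all tested genes and 8 of 10 over the pan-neuronal markers. This list too was chosen with earlier results of these data known. Tac1, the substance P precursor, had 405, 377 and 434 CPM in CreER-positive ganglia and 328, 285 and 314 CPM in CreER-negative ganglia (0.39, adjusted p 0.0699 by edgeR and 4.01e-05 by DESeq2). It was called by edgeR without CreER-positive replicate 3 (0.34, adjusted p 0.0379) and without a count filter (0.4, 0.0291). With pan-neuronal scaling Tac1 had 0.29 and an edgeR adjusted p of 0.918. Calca, the CGRP precursor, had 0.25 (edgeR adjusted p 0.330) and Oprm1, the mu opioid receptor, 0.11 (0.701). Scaling to pan-neuronal markers turned the estimate of Oprm1 to -0.02.

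**Figure D5:**
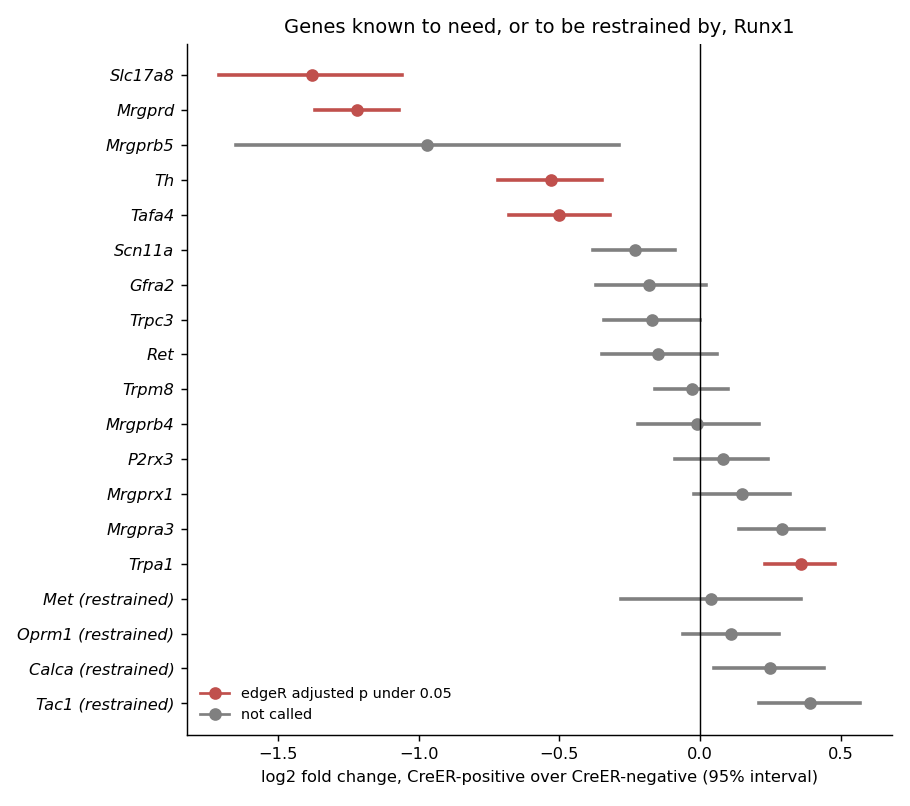
Log2 fold change, CreER-positive over CreER-negative (horizontal axis), with the unadjusted 95% interval for 15 genes known to depend on Runx1 (upper rows) and 4 of the 5 known to be restrained by it (lower rows); red marks an edgeR adjusted p under 0.05. Slc17a8 (-1.38) and Mrgprd (-1.22) lie farthest to the left, while Trpa1 (0.36) is called on the right.

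Other transcription factors of sensory neurons mostly did not pass. Of 22 tested, 0 rose and 2 fell (Pou4f2 and Casz1), against 0.177% of all tested genes higher and 0.549% lower. The median log2 fold change of the 22 was 0.04. Casz1, a zinc finger factor, had 80.2, 76.8 and 69.1 CPM in CreER-positive ganglia, against 105, 98.4 and 94.6 CPM in CreER-negative ganglia. Its log2 fold change was -0.40 ± 0.07 (SE, edgeR adjusted p 0.0366), and the groups did not overlap. The call was lost without CreER-positive replicate 1 or 2 (0.0530 and 0.0767) or CreER-negative replicate 1, 2 or 3 (0.204, 0.174 and 0.105), without CreER-negative replicate 2 and CreER-positive replicate 3 together (0.0873), and with pan-neuronal scaling (0.112). Zfp521, a zinc finger factor, had -0.29 (0.299).

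Among partners, corepressors and relatives of the 10 factors, 0 of 16 tested genes were called by edgeR or limma-voom (0.726% and 0.721% of all tested genes). An unadjusted edgeR p under 0.05 was reached by 2 (10.5% of all tested genes did so), and DESeq2 called 1 (2.28% of its tested genes). That gene was Ldb2, a LIM-domain binding protein and so a partner of Isl1 and Isl2, with 164, 151 and 152 CPM in CreER-positive ganglia and 135, 134 and 131 CPM in CreER-negative ganglia (0.22, adjusted p 0.176 by edgeR and 0.0283 by DESeq2). Tlx2, a relative of Tlx3, had 0.24 (edgeR adjusted p 0.325), and without CreER-positive replicate 3 it was called (0.32, 0.0339). The Groucho-type corepressor genes Tle1 and Tle4, whose proteins bind Runx factors, had 0.12 and 0.10 (0.537 and 0.521), and scaling to pan-neuronal markers turned these estimates to 0.00 and -0.02.

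The neurotrophin receptors gave 0 calls of 4 by edgeR, DESeq2 and limma-voom, which called 0.726%, 2.28% and 0.721% of their tested genes. Of these receptors, the Trk receptors mark neuron classes that Runx1 and Runx3 divide. Of the 4, 2 had an unadjusted edgeR p under 0.05 (10.5% of all tested genes did). Ngfr, the p75 receptor, had 540.1, 559 and 395 CPM in CreER-positive ganglia and 396, 397 and 406 CPM in CreER-negative ganglia. CreER-positive replicate 3 was below, and replicates 1 and 2 above, all CreER-negative libraries, and without that replicate Ngfr was called (0.46, edgeR adjusted p 0.00177). Ntrk3, the TrkC receptor, had 132 ± 17.6 CPM in CreER-positive mice and 139.9 ± 7.93 CPM in CreER-negative mice (-0.08), and Ntrk2, TrkB, had 175 ± 14.3 and 179 ± 8.91 CPM in the same order of groups (-0.04). Without CreER-positive replicate 3 both estimates were 0.02.

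The genes whose log2 CPM followed Runx1 most closely over the 6 libraries, by Pearson's r among 17468 genes that averaged 1 CPM or more, were Slc51a (0.9983), Rgs4 (0.9979), Tafa4 (0.9973), Arsb (0.9972) and Plxnc1 (0.9968). Tafa4 is also on the Runx1-dependent list. In all, 539 genes had an r above 0.9 with Runx1. For Isl2, chosen for this after its values were seen, they were Lmbrd1 (0.9984), Gramd4 (0.9980), Phf24 (0.9972), Casz1 (0.9957) and Osbpl6 (0.9952), and 531 genes had an r above 0.9. With 6 libraries in 2 groups such values rest mostly on the difference between the groups, and they are given as a description.

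Of the 10 factors, 3 overlap another annotated gene. Runx1 shares 5032 bases with the long noncoding RNA gene Gm30281, which had 1 to 9 reads in a library. Klf7 shares 21873 bases with the long noncoding RNA gene Gm13748, which had 206 to 291 reads, and smaller stretches with Gm35880 and Mir6899, and Cbfb shares 3372 bases with AI225912 and a short stretch with a small nuclear RNA gene. The strand setting of the counting is not given in the sources used here, so reads there cannot be assigned to 1 gene. Scn9a itself had 620, 565 and 574 CPM in CreER-positive ganglia and 635, 611 and 557 CPM in CreER-negative ganglia (-0.04, edgeR adjusted p 0.916). The floxed part of Scn9a is not given in the sources used here, so this gene-level count does not check the group labels. Total counts ranged from 52309273 to 62625441 in CreER-positive libraries and from 40237131 to 63332040 in CreER-negative libraries.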

How the data were processed

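Total RNA of lumbar ganglia was sequenced from 6 mice. Reads were aligned with GSNAP to GRCm38 (mm10), per the submitters' processing notes; the sources used here give no version, counting tool, annotation or strand setting. The deposited count is a raw whole number per NCBI gene identifier. The deposited RPKM is the authors' count relative to gene width and library total, used for levels only. The width lay within 5% of the gene's span for 77.7% of genes.

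Identifiers were matched to GRCm38.p6 symbols (31049 of 36528). Genes were filtered with filterByExpr, scaled with TMM and tested for the group with edgeR 4.0.16 (R 4.3.3) at an adjusted p of 0.05; DESeq2 1.42.0 and limma-voom 3.58.1 were alternatives. The SE is the log2 fold change over the root of its F value. Labels give no batch or pairing, and replicate numbers follow accession order. The test was checked on simulated data. Likeness used log2(CPM + 0.5). Figures were drawn with matplotlib 3.10.9.

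Members and gene lists were chosen with earlier results of these data known. Named genes were the 10 factors, the called genes and the 4 smallest p values of each list, the 5 genes most like Runx1, and Scn9a; exceptions are marked. Values of some listed genes are not reported here.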

Additional observations from a re-analysis of the deposited data

How the results depend on the processing

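No paired analysis was possible because the labels number no replicates, and the numbers used here follow accession order and pair no samples. Gene by gene, 493 comparisons with an alternative kept direction and call, 29 lost a call, 20 gained one and 18 changed sign. Genes called numbered 160, but 254 without a count filter, 421 by DESeq2, 76 with pan-neuronal scaling, 107 without CreER-negative replicate 2 and CreER-positive replicate 3, and 60 to 549 without 1 library; the highest, without CreER-positive replicate 3, had 320 higher and 229 lower, the two-library omission 31 higher and 76 lower. The 1 factor called became 2 with upper-quartile factors, total counts, no filter, the robust setting or DESeq2, 0 with pan-neuronal scaling or without both libraries, and 0 to 3 without 1 library. Of Runx1-dependent genes, 5 were called, 3 with pan-neuronal scaling or without both libraries, 7 by DESeq2 and 2 to 6 without 1 library. Of other factors 2 were called, 1 with pan-neuronal scaling or without both libraries, and 1 to 2 without 1 library. Of restrained genes 0 were called, 1 by DESeq2 or without a filter and 0 to 2 without 1 library; of partners 1 by DESeq2 and 0 to 1; of neurotrophin receptors 1 without both libraries and 0 to 2. Signs turned for estimates near 0: Cbfb with total counts (0.00), pan-neuronal scaling (-0.10) and without CreER-positive replicate 1 (-0.01), Oprm1 (-0.02), Tle4 (-0.02) and Tle1 (0.00) with pan-neuronal scaling. With libraries left out, signs turned within these ranges: Pou4f1 -0.17 to 0.00, Tlx3 -0.11 to 0.04, Klf7 -0.15 to 0.04, Ntrk3 -0.17 to 0.07, Ntrk2 -0.10 to 0.03, Runx2 -0.15 to 0.04 and Scn9a -0.09 to 0.00. The cause was not tested.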
